A study of Mus musculus with 5 samples.

Results

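Immunoglobulin kappa variable (Igkv) segments were followed in RNA from mouse colorectal cancer (CRC) tumours, grown from implanted MC38 colon adenocarcinoma cells in C57BL/6 animals. The members were all entries of the count table whose gene name starts with Igkv, which were 160 of 54113 named entries. The mice that carried these tumours were housed for 2 weeks at 30 °C (3 tumours) or at 4 °C (2 tumours), and the study asked how cold exposure alters a growing tumour. The source gave no transgene, deletion or drug for either group, and the age and sex of these animals were not given with the samples. The labels do not say how the tumours were spread over animals, so the p-values below measure the spread between these 5 tumours. The values are whole-number read counts per gene, which were divided by the library total to give counts per 1000000 (CPM) or by the summed Igkv counts of the tumour to give a share.

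An antibody light chain of the kappa type is assembled in a developing B cell, when one of many V segments on the chromosome is joined to one of a few J segments upstream of the single constant exon, Igkc. V segments that lie in the same orientation as the J segments are joined by deletion of the DNA between them, and those in the opposite orientation are joined by inversion. Each B cell clone, and the plasma cells that descend from it, transcribes mainly the V segment it has joined, so that in tissue RNA the shares of V segments describe which light chains its B-lineage cells make and in what amounts. Tumour cells of epithelial origin do not rearrange these segments. In bulk RNA, more cells of a clone and more RNA per cell cannot be told apart.

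The libraries held between 16191708 and 20320525 named counts, and 333 unnamed entries were kept out. Markers of other cells moved between the tumours. The summed level of 12 pancreatic acinar enzymes was 227321 CPM in 30 °C replicate 2 and 2216 CPM in 4 °C replicate 2, against 19.2 to 73.3 CPM in the other 3 tumours. Of the markers that a carcinoma should carry, Epcam stood at 7.91 to 11.4 CPM in every tumour, and Krt19 had 0 counts in 30 °C replicate 3 and 4 °C replicate 1. In these 2 tumours Krt8 was at 4.63 and 3.17 CPM. It was at 36.3 and 39.6 CPM in 30 °C replicates 1 and 2 and at 59.7 CPM in 4 °C replicate 2. Krt18 and Cdh1 were highest in 30 °C replicate 2, at 37.7 and 24.4 CPM. Tlx1, a transcription factor of the spleen's mesenchyme, was counted at 10.5 to 30.2 CPM, and the 7 erythroblast genes summed to between 14241 and 41034 CPM. The part of these other cells in the Igkv values was not tested.

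Igkv segments lay on chromosome 6, between chr6:67555497 (Igkv2-137) and the region next to Igkj1, over 3149 kb of the GRCm38 assembly. The annotation (GENCODE M21) named 100 of them as V genes and 60 as pseudogenes, in 20 families. A V gene has a short leader exon, an intron and a V exon that holds the part kept in the joined gene. The germline ends of the segments the results turn on are printed here, from the codon of the conserved cysteine to the last base of the annotated V exon. This stretch encodes the V segment's part of the third complementarity-determining region, the loop in which light chains differ most. The sequences are those of the GENCODE M21 transcripts. The cysteine codon is in capitals.

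Igkv10-96, chr6:68631963-68631988, minus strand: TGCcaacagggtaatacgcttcctcc
Igkv1-117, chr6:68121802-68121827, plus strand: TGCtttcaaggttcacatgttcctcc
Igkv1-135, chr6:67610483-67610508, plus strand: TGCtggcaaggtacacattttcctca
Igkv14-111, chr6:68256844-68256869, plus strand: TGTctacagtatgatgagtttcctcc
Igkv8-30, chr6:70117061-70117086, minus strand: TGTcagcaatattatagctatcctcc
Igkv6-15, chr6:70406469-70406494, minus strand: TGTcagcaatataacagctatcctct
Igkv1-122, chr6:68017463-68017488, plus strand: TGCctccaagttacacatgtccctcc
Igkv5-37, chr6:69963312-69963337, minus strand: TGTcttcaaggttacagcacaccttc
Igkv6-25, chr6:70215932-70215957, plus strand: TGTcagcaacattatagcactcctcc
Igkv11-125, chr6:67914027-67914052, plus strand: TGTctacagcatagttatctccctcc

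The first 6 had the largest mean shares, and the last 4, with Igkv14-111, had the smallest p-values between temperatures. Igkv1-117 and Igkv1-135 begin with TGC and share most of the bases that follow. An end of 26 bases was found in 67 of the 100 V genes, which held 77.8% of the mean share. All 21 segments with an end of 28 bases belonged to the Igkv4 family and held 14.7%. The last 5 bases were cctcc in 42 segments, and these carried between 46.5% (30 °C replicate 2) and 55.5% (4 °C replicate 2) of the Igkv counts of a tumour.

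Among the segments that led in a tumour, the whole V exon is given for Igkv10-96, the segment with the largest mean share, and for Igkv14-111, the leading segment of 30 °C replicate 1 and one of the 5 segments with the smallest p between temperatures. Both are 298 bases long, and the cysteine codon is again in capitals.

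Igkv10-96, chr6:68631963-68632260, minus strand: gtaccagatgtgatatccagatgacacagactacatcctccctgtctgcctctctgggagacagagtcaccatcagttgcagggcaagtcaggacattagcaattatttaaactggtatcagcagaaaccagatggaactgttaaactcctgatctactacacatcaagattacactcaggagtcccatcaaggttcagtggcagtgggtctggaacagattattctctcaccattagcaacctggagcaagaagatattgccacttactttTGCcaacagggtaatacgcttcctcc
Igkv14-111, chr6:68256572-68256869, plus strand: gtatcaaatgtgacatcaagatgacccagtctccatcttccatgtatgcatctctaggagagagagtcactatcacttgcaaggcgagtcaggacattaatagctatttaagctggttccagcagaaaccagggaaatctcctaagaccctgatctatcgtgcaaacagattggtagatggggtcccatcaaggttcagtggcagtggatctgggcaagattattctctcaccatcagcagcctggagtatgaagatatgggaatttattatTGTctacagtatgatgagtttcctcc

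Transcripts of the kappa locus were abundant in all 5 tumours. The summed Igkv counts were 105042, 67118 and 110372 in 30 °C replicates 1 to 3, and 121397 and 70805 in 4 °C replicates 1 and 2. As a percentage of all named counts, these were 0.601% (95% Wilson interval 0.597 to 0.604), 0.406% (0.403 to 0.409) and 0.543% (0.540 to 0.546) at 30 °C, and 0.652% (0.649 to 0.656) and 0.437% (0.434 to 0.441) at 4 °C. Such intervals cover counting error only, since polymerase chain reaction duplicates were not marked in the table. The 2 lowest values came from one tumour of each temperature, 30 °C replicate 2 and 4 °C replicate 2, and the groups overlapped. After scaling by the trimmed mean of M values (TMM), which allows for the acinar counts of 30 °C replicate 2, the levels were 5590, 5513 and 4819 CPM at 30 °C, and 6037 and 4242 CPM at 4 °C. On the log2 scale the level at 30 °C was 12.37 ± 0.118 (SD, n = 3), and at 4 °C it was 12.31 ± 0.360 (SD, n = 2), and the difference of -0.066 was smaller than the SD at either temperature (two-sided exact permutation p = 0.8). With 3 tumours against 2 there are 10 splits, and the smallest p that a two-sided test can give is 0.2.

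B cell and plasma cell markers were counted beside Igkv. The 10 B cell genes summed to 1499, 1531 and 4177 CPM at 30 °C, and to 4486 and 3529 CPM at 4 °C, so that 30 °C replicates 1 and 2 lay lowest. The 9 plasma cell genes summed to 1866, 1598 and 2521 CPM at 30 °C, and to 2900 and 2351 CPM at 4 °C. Igkv counts per B cell marker count were thus 4.01, 2.65 and 1.30 at 30 °C and 1.45 and 1.24 at 4 °C. The first 2 of these tumours had more Igkv per B cell marker than the others. Jchain, which joins antibody units in plasma cells, was at 928, 920 and 1487 CPM at 30 °C, and at 1738 and 1368 CPM at 4 °C.

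Igkc, the constant exon to which every joined V segment is spliced, was at 7888, 4694 and 5773 CPM at 30 °C, and at 7463 and 8234 CPM at 4 °C. TMM-scaled, Igkc was at 7340, 6374 and 5122 CPM at 30 °C, and at 6908 and 7987 CPM at 4 °C. The lowest tumour was thus 30 °C replicate 2 on the library total and 30 °C replicate 3 after TMM. The ratio of summed Igkv counts to Igkc counts was 0.762, 0.865 and 0.941 at 30 °C and 0.874 and 0.531 at 4 °C. The lowest ratio was that of 4 °C replicate 2, which had the highest Igkc and the lowest TMM-scaled Igkv level. The other loci gave the same tumour the lowest place. Iglv counts per Iglc count (lambda light chain) were 1.11, 0.863 and 0.783 at 30 °C and 0.706 and 0.562 at 4 °C. Ighv counts per heavy-chain constant count were 0.242, 0.291 and 0.295 at 30 °C and 0.266 and 0.127 at 4 °C. Counts of the 5 Igkj entries, of 12 to 82 reads each, came to 0.123%, 0.171% and 0.280% of the Igkc counts at 30 °C and to 0.221% and 0.0953% at 4 °C. The log2 ratio of Igkv to Igkc at 30 °C was -0.23 ± 0.153 (SD, n = 3), and at 4 °C it was -0.55 ± 0.508 (SD, n = 2), a difference of -0.32 (exact permutation p = 0.6). Without 4 °C replicate 2 the difference was 0.036.

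**Figure D1:**
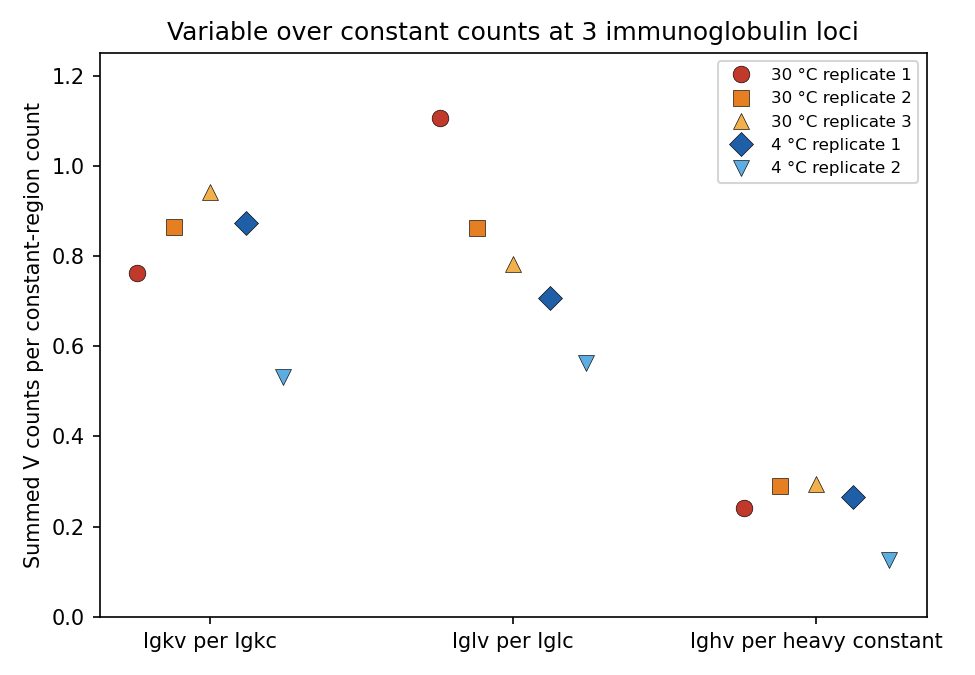
Summed V counts per constant-region count (y axis, a ratio) at the kappa, lambda and heavy-chain loci (x axis) in each of the 5 tumours, one point per tumour. 4 °C replicate 2 has the lowest value at all 3 loci, with 0.531 for kappa, 0.562 for lambda and 0.127 for the heavy chain.

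Lambda, the other light chain, was scarcer. Igkc counts were 18.4, 11.5 and 7.25 times the summed Iglc counts at 30 °C and 8.84 and 7.26 times at 4 °C. The 2 highest ratios were those of 30 °C replicates 1 and 2, and 30 °C replicate 3 lay just under both 4 °C tumours. The log2 ratio at 30 °C was 3.52 ± 0.670 (SD, n = 3), and at 4 °C it was 3.00 ± 0.202 (SD, n = 2) (difference -0.52, exact permutation p = 0.6). Without 30 °C replicate 1 the difference was -0.19, and without 30 °C replicate 3 it was -0.86.

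Nearly every V gene of the locus was transcribed in every tumour. More than 3 counts were found for 104, 103 and 108 segments at 30 °C and for 105 and 103 at 4 °C, and after thinning to the smallest Igkv total the expected numbers were 100.5, 103 and 105.0, and 104.1 and 102.6. Of the 100 V genes, 96 were over 3 counts in all 5 tumours. The exceptions were Igkv1-131, Igkv1-35, Igkv8-26 and Igkv18-36, and Igkv1-35 alone had no more than 3 counts in any tumour, with 3 in 4 °C replicate 1 and 0 elsewhere. A count of 0 allows up to 0.148 to 0.185 CPM in these libraries. The number detected at 30 °C was 105 ± 2.65 (SD, n = 3), and at 4 °C it was 104 ± 1.41 (SD, n = 2) (exact permutation p = 1).

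Pseudogenes, which have lost a usable reading frame or signal, gave few counts. Of the 60, 35 had 0 counts in all 5 libraries, 11 passed 3 counts in at least 1 tumour and 3 did so in all 5. Together they held 0.151%, 0.128% and 0.217% of Igkv counts at 30 °C and 0.197% and 0.181% at 4 °C. Igkv4-77 led them with 41, 35 and 93 counts at 30 °C and 81 and 59 counts at 4 °C. Igkv4-56 stood out in 30 °C replicate 1, with 59 counts against 2 to 24 in the other tumours.

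Usage was broad in all 5 tumours. It took 15 segments in each tumour to reach 50% of the Igkv counts, and 49 in each tumour at 30 °C and 50 and 52 at 4 °C to reach 90%. Pielou evenness, which is 1 when all segments are used equally, was 0.829, 0.831 and 0.829 at 30 °C and 0.819 and 0.831 at 4 °C. The lowest value was that of 4 °C replicate 1, and 4 °C replicate 2 had the highest. The group means were 0.830 ± 0.000774 (SD, n = 3) and 0.825 ± 0.00843 (SD, n = 2), a difference of -0.0045 (exact permutation p = 0.8). The inverse Simpson index, an effective number of equally used segments, was 41.8, 42.6 and 40.3 at 30 °C and 33.1 and 39.1 at 4 °C. On this index both 4 °C tumours lay below all tumours at 30 °C.

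The most used segments held a larger share in both 4 °C tumours than in any at 30 °C, a difference that did not pass the test. The leading segment held 4.92%, 4.48% and 5.96% of Igkv counts at 30 °C and 10.02% and 6.68% at 4 °C. The 5 leading segments of each tumour held 21.9%, 21.3% and 24.6% at 30 °C and 27.5% and 25.7% at 4 °C. The groups did not overlap on either measure. The top-5 share at 30 °C was 22.6% ± 1.79 (SD, n = 3), and at 4 °C it was 26.6% ± 1.31 (SD, n = 2), a difference of 4.02 percentage points (exact permutation p = 0.2, the smallest possible, and 0.933 after Benjamini-Hochberg adjustment over 7 single-value tests). The 10 leading segments held 38.8% to 39.4% at 30 °C and 40.9% and 39.5% at 4 °C.

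**Figure D2:**
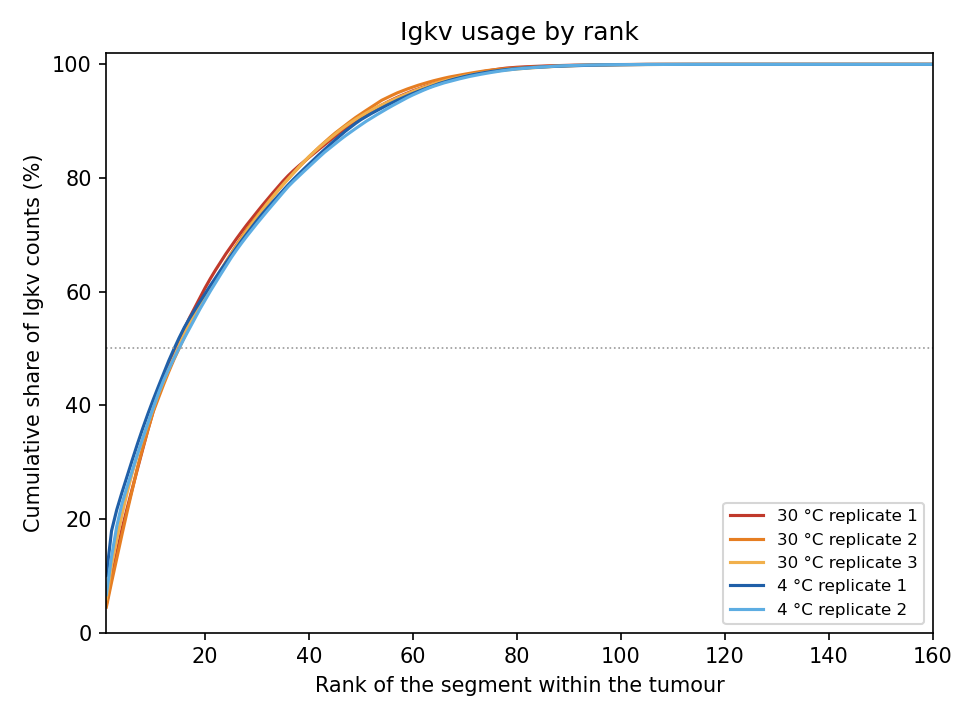
Cumulative share of Igkv counts (y axis, %) against the rank of the segment within its tumour (x axis), one line per tumour, with a dotted line at 50%. The 5 lines run close together and reach the dotted line at 15 segments in every tumour.

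The same 3 segments led in most tumours. Igkv10-96, Igkv1-117 and Igkv1-135 were among the 10 leading segments of all 5 tumours and were the only ones of 20 segments that reached the top 10 of any tumour to do so. The first place was taken by Igkv14-111 in 30 °C replicate 1, by Igkv1-135 in 30 °C replicate 3 and by Igkv10-96 in the other 3 tumours. Igkv10-96 held 3.66%, 4.48% and 4.53% at 30 °C and 10.02% and 6.68% at 4 °C. Its highest value was that of 4 °C replicate 1, and both 4 °C tumours lay above the 3 tumours at 30 °C.

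Igkv1-117 held 4.38%, 4.22% and 5.88% at 30 °C and 7.90% and 6.66% at 4 °C. Igkv1-135 held 4.67%, 4.37% and 5.96% at 30 °C and 3.70% and 5.36% at 4 °C. The first of them was highest in both 4 °C tumours, and the second overlapped between the groups. Both are members of the Igkv1 family, and their nearest relatives, Igkv1-110 (96.8% identical to Igkv1-117 over the V exon) and Igkv1-133 (96.5% identical to Igkv1-135), held mean shares of 2.23% and 0.119%. Igkv14-111 held 4.92%, 4.05% and 3.97% at 30 °C and 2.33% and 2.84% at 4 °C, and both 4 °C tumours lay below all tumours at 30 °C.

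Behind them, Igkv8-30 (3.42%, 2.40% and 3.18% at 30 °C, and 2.57% and 2.78% at 4 °C) was the steadiest of the 10 leading segments by mean share. Igkv6-15 held 1.75%, 4.16% and 2.66% at 30 °C and 2.89% and 2.63% at 4 °C. Igkv12-44 held 1.76%, 2.40% and 2.79% at 30 °C and 2.28% and 3.98% at 4 °C, with its highest share in 4 °C replicate 2. Igkv6-23 ranged from 1.44% to 3.48%, Igkv19-93 from 1.21% to 3.85% and Igkv1-110 from 1.83% to 2.69%. A longer transcript gives more fragments, and the exons of V genes were 338 to 501 bases long. After counts were divided by exon length, 9 of the 10 leading segments were the same and the first 4 kept their order, with mean per-length shares of 6.07% for Igkv10-96, 5.33% for Igkv1-117, 4.53% for Igkv1-135 and 3.65% for Igkv14-111.

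**Figure D3:**
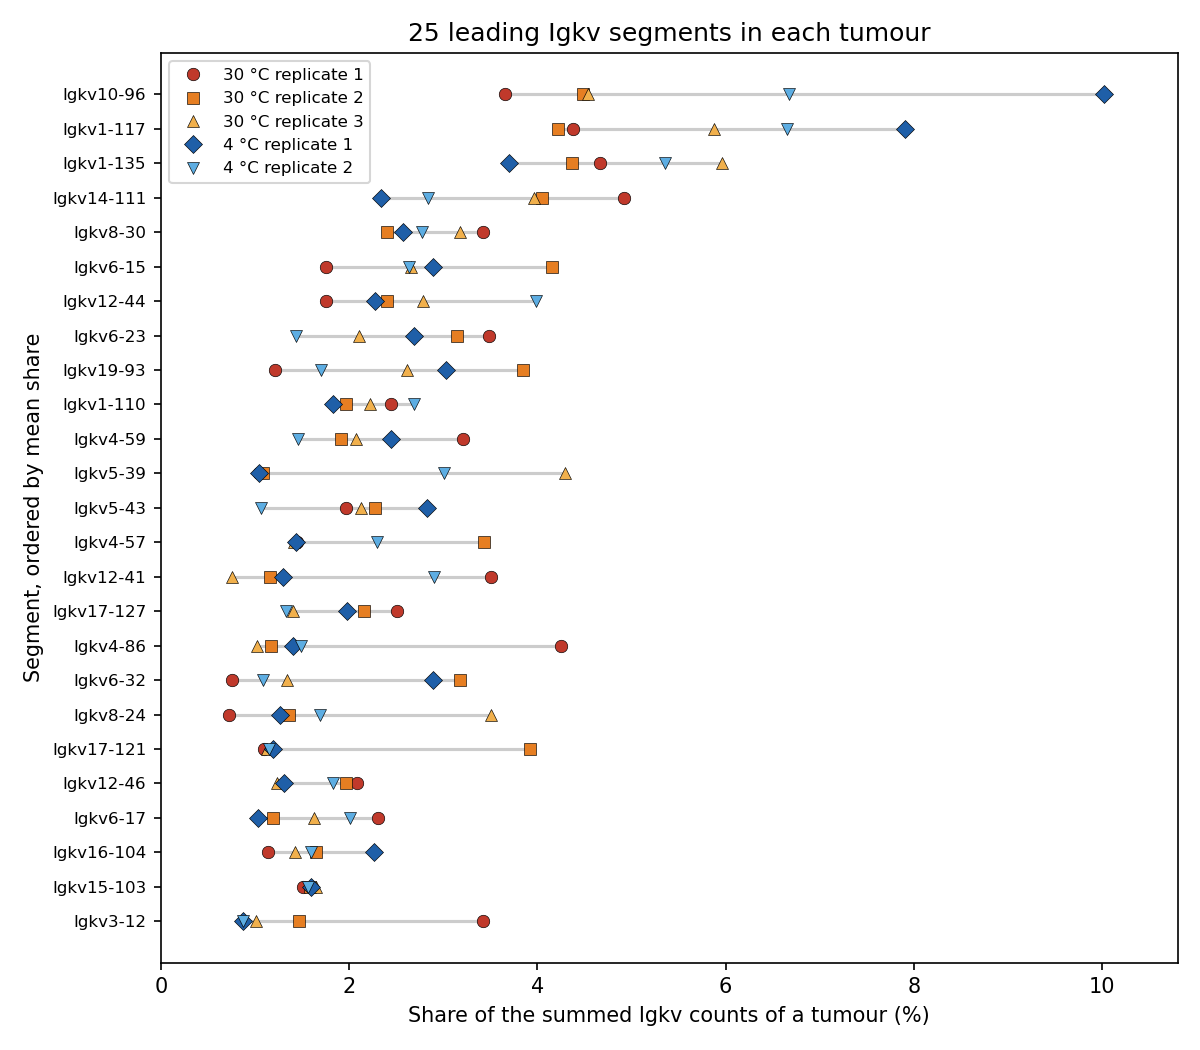
Share of the summed Igkv counts (x axis, %) of the 25 segments with the largest mean share (y axis, in that order), with one symbol per tumour and a grey line from the lowest to the highest. The symbols of Igkv10-96 at 4 °C lie at 6.68% and 10.02%, right of all 3 at 30 °C, and those of Igkv15-103 nearly coincide.

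Single tumours had high shares of particular segments. Of 50 segments that reached 1% in any tumour, the highest share was more than 2 times the lowest for 34 and more than 3 times for 15, with a median of 2.37. The highest share lay in 30 °C replicate 1 for 16 of them, in the other tumours at 30 °C for 9 and 10, and in the tumours at 4 °C for 8 and 7. On the other side, 22 segments were above 1% in all 5 tumours. Igkv15-103 varied least, with 1.51%, 1.58% and 1.65% at 30 °C and 1.60% and 1.56% at 4 °C.

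30 °C replicate 1 stood apart most. It had 8 segments at 1% or more whose share was over 2 times the median of the other 4 tumours, and these summed to 21.1% of its Igkv counts. The same count was 3 (10.5%) and 5 (14.0%) in 30 °C replicates 2 and 3, and 2 (12.9%) and 4 (10.3%) in 4 °C replicates 1 and 2. Igkv6-13 held 1.62% in 30 °C replicate 1, against 0.353% and 0.397% in the other tumours at 30 °C and 0.343% and 0.242% at 4 °C. Igkv3-12 held 3.42% there, against 1.47% and 1.01% at 30 °C and 0.870% and 0.877% at 4 °C. Igkv4-86 was at 4.25% there against 1.02% to 1.48% in the others, which made it the fourth segment of that tumour. The low-level members Igkv3-9 (277 counts against 4 to 16) and Igkv3-1 (808 counts against 79 to 275) were also highest in this tumour. They were picked for that difference after their values were seen. In the same tumour Ighg2b was at 4559 CPM (1726 to 2143 in the others) and Ighg3 at 1004 CPM (307 to 524). Of the 9 plasma cell genes, 2 were highest there as CPM of the library total. Sdc1, a surface proteoglycan, was at 94.4 CPM (27.0 to 67.3 in the others) and Xbp1 at 340 CPM (200 to 259). Irf4 (44.4 CPM) and Tnfrsf17 (1.49 CPM) were lowest there. The summed level of 1866 CPM was the second lowest, above that of 30 °C replicate 2, whose library total held the acinar counts. The part of these class-switched transcripts in the Igkv shares was not tested.

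In 30 °C replicate 2 the segment that stood out most was Igkv17-121, with 3.92% against 1.10% to 1.19% in the other tumours. Igkv6-32 was high in this tumour and in 4 °C replicate 1, with 3.18% and 2.89%, and was at 0.750% and 1.34% in the other tumours at 30 °C and at 1.08% in 4 °C replicate 2. Igkv5-39 was high in 30 °C replicate 3 and in 4 °C replicate 2, with 4.29% and 3.01%, against 1.04%, 1.08% and 1.04% in the rest. Both were thus high in one tumour of each temperature. Igkv12-98 reached 1.49% in 30 °C replicate 3, with 0.374% and 0.968% in the others at 30 °C and 0.412% and 0.338% at 4 °C. Igkv12-41 was at 2.90% in 4 °C replicate 2 and at 3.51% in 30 °C replicate 1, and between 0.755% and 1.30% in the remaining tumours.

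A difference in composition between the temperatures was not detectable in these 5 tumours. The Bray-Curtis distance between the shares of a pair of tumours, which is 0 for equal shares and 1 for no overlap, averaged 0.217 (0.166 to 0.269) between temperatures and 0.220 (0.186 to 0.257) within a temperature. The difference, -0.0035, gave p = 0.7 in an exact permutation test (one-sided, smallest possible p 0.1). The 4 largest distances, 0.243 to 0.269, were those of 30 °C replicate 1 with each of the other tumours. The smallest was that of 30 °C replicate 3 with 4 °C replicate 2. The pairs differed far beyond counting error, with a chi-square per degree of freedom of 84.6 to 225, so no library repeated another. Across segments the shares of a pair had Spearman correlations of 0.955 to 0.973 and Pearson correlations of 0.741 to 0.911, given here as a description over segments of 1 locus.

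The families differed widely in size and in steadiness. Igkv4, with 33 entries and 26 V genes, held 20.7%, 17.8% and 15.3% at 30 °C and 16.7% and 18.8% at 4 °C, and its leading segment, Igkv4-59, made up 12.4% of it. Igkv1 followed with 12.5%, 11.1% and 14.9% at 30 °C and 14.7% and 15.9% at 4 °C, and Igkv6 with 9.66% to 14.0%. In Igkv10 a single segment, Igkv10-96, made 84.4% of the family's counts, and the family held 4.90%, 5.33% and 5.62% at 30 °C and 11.3% and 7.66% at 4 °C. Igkv14 rested likewise on Igkv14-111 (76.2%) and held 6.09%, 4.62% and 5.30% at 30 °C and 3.80% and 3.95% at 4 °C. Igkv3 held 9.41%, 6.72% and 5.78% at 30 °C and 5.40% and 5.43% at 4 °C, with the highest value in 30 °C replicate 1. Over the 20 families, 5 did not overlap between temperatures. That is close to the share among all genes tested, of which 23.3% did not overlap on TMM-scaled CPM. Igkv10 and Igkv9 (1.83% to 2.22% at 30 °C, and 2.45% and 3.43% at 4 °C) were higher in both 4 °C tumours, and Igkv3, Igkv14 and Igkv11 (0.156% to 0.359% at 30 °C, and 0.0634% and 0.0692% at 4 °C) were lower.

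**Figure D4:**
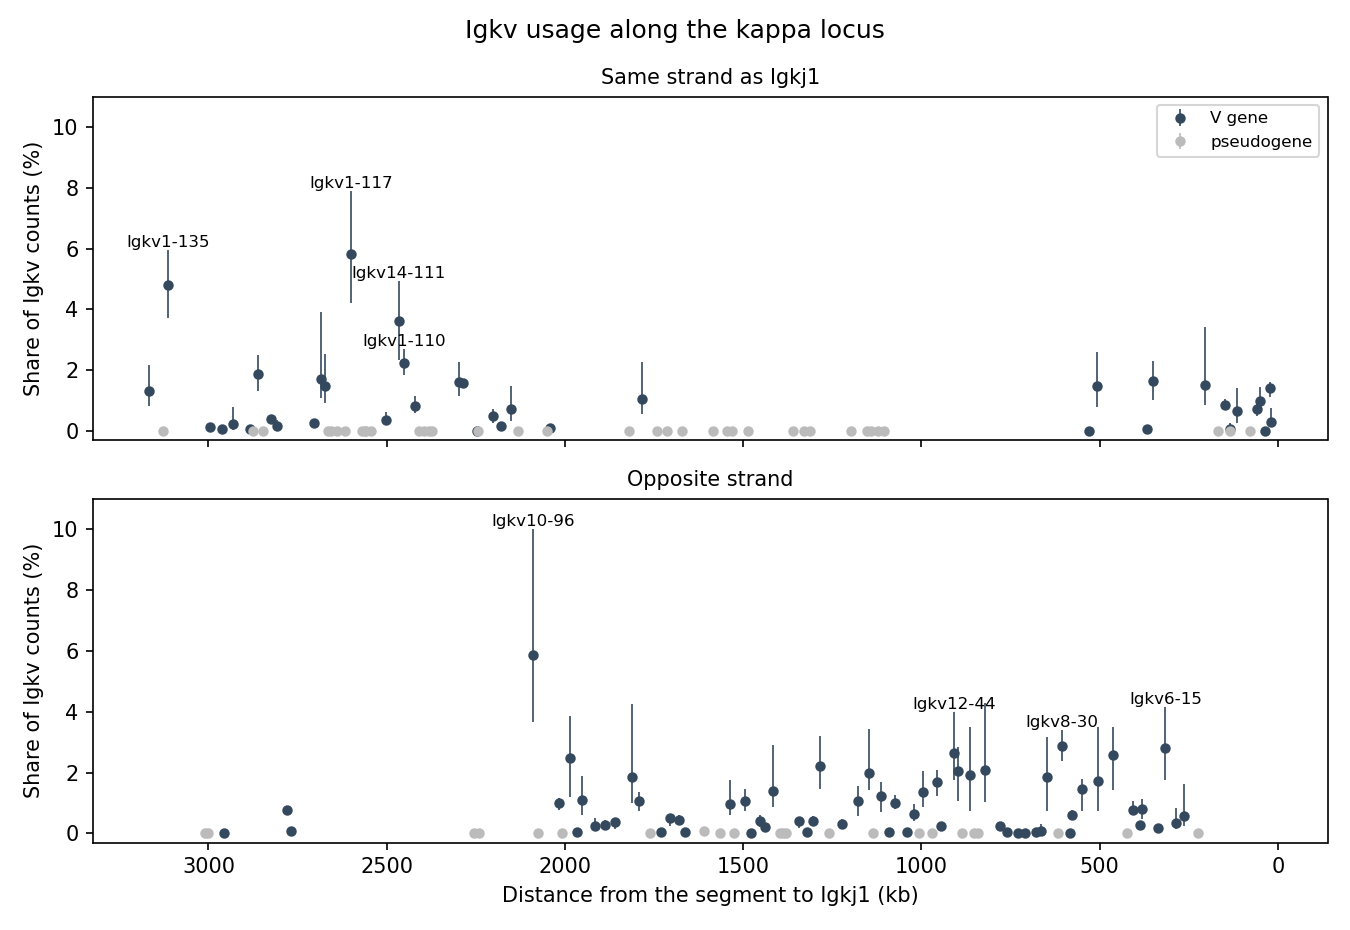
Share of Igkv counts (y axis, %) of each segment against its distance to Igkj1 (x axis, kb), in a panel for segments on the same strand as Igkj1 and one for the opposite strand; points are means of 5 tumours and bars run from the lowest to the highest tumour. Igkv10-96 is the tallest on the opposite strand (mean 5.87%) and Igkv1-117 (mean 5.81%) on the same strand, while pseudogenes lie near 0.

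Segments along the whole locus were used. The segments lay 18.4 to 3166 kb from Igkj1, and in 4 equal stretches from the nearest to the farthest they held mean shares of 27.1%, 25.6%, 21.2% and 26.2%. These stretches hold 33, 25, 22 and 20 V genes, so the share per V gene was 0.820%, 1.02%, 0.963% and 1.31%, highest in the farthest stretch. Over the 100 V genes the Spearman correlation of distance with mean share was 0.0056. The nearest stretch held 28.4%, 29.2% and 28.4% at 30 °C and 24.5% and 24.7% at 4 °C. The stretch that contains Igkv10-96 held 20.4%, 19.7% and 19.1% at 30 °C and 26.0% and 20.7% at 4 °C. The groups did not overlap in these stretches and overlapped in the others. Of all genes tested, 23.3% did not overlap on TMM-scaled CPM, and differences by stretch or by strand were not tested. Segments on the same strand as Igkj1, which join by deletion, held 43.3%, 40.7% and 42.4% at 30 °C and 37.9% and 39.6% at 4 °C, again without overlap. The 38 V genes on that strand averaged 1.07% each and the 62 on the opposite strand 0.955% each. Igkv10-96 is on the opposite strand and Igkv14-111 on the same strand, so the split by strand, by stretch and by family counts partly the same reads.

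Many segments are close copies, which bears on how a read can be assigned. The median V gene was 94.2% identical to its nearest relative, and 45 V genes at 95% or more held 51.4% of the mean share. For 37 V genes every stretch of 75 bases was unique within the locus, and for 2 fewer than 50% were. How reads that fit more than one segment were counted is not given in the sources used here, and hypermutation in B cells can add differences that the reference does not hold. The closest pair, Igkv5-43 and Igkv5-45, is 99.0% identical and has the same germline end. It is printed with the differing bases in capitals, which are C65A, C89T and A105T when positions are counted from 1 at the 5′ end of the V exon's coding part and Igkv5-43 is given first.

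Igkv5-43, chr6:69823355-69823652, minus strand: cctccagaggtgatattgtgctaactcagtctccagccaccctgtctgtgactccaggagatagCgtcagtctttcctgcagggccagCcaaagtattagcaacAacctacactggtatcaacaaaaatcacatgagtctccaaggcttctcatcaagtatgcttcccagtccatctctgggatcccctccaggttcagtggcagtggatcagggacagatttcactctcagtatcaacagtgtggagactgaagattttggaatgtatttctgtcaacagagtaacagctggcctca
Igkv5-45, chr6:69775750-69776047, minus strand: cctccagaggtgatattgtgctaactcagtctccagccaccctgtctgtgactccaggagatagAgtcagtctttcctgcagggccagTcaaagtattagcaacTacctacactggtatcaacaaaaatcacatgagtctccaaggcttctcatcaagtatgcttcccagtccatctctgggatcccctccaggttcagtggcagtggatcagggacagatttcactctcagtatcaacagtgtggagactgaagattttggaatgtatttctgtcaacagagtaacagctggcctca

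In spite of that, the counts of the pair were unequal in every tumour. Igkv5-43 held 1.96%, 2.28% and 2.13% at 30 °C and 2.83% and 1.06% at 4 °C. Igkv5-45 held 0.375%, 0.222% and 0.369% at 30 °C and 0.163% and 0.171% at 4 °C. The second was lower in both 4 °C tumours than in any at 30 °C, and the first was highest in one 4 °C tumour and lowest in the other.

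The pair Igkv17-127 and Igkv17-121 is shown because the second stood out in 30 °C replicate 2 and the first did not. The V exons are 98.0% identical, and the differences, with Igkv17-127 first, are G48A, C55T, T71C, C215T, C244T and A291T.

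Igkv17-127, chr6:67861362-67861659, plus strand: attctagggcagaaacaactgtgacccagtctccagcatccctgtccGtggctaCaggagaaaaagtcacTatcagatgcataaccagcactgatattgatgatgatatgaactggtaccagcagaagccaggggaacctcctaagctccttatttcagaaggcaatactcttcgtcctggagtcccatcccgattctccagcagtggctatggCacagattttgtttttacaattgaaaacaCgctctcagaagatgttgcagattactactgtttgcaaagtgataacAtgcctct
Igkv17-121, chr6:68037021-68037318, plus strand: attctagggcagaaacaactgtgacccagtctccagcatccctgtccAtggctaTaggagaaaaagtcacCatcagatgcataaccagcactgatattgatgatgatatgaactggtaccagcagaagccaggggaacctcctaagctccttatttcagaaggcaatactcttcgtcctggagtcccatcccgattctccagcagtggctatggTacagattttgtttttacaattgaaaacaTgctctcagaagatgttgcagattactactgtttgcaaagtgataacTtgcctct

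Igkv17-127 held 2.50%, 2.15% and 1.41% at 30 °C and 1.98% and 1.33% at 4 °C, and Igkv17-121 held 1.10%, 3.92% and 1.12% at 30 °C and 1.19% and 1.15% at 4 °C. In 30 °C replicate 2 the counts were 1446 for Igkv17-127 and 2633 for Igkv17-121, whereas the order was the opposite in the other 4 tumours. Ends were also shared beyond families. Igkv6-25 and Igkv8-24 end in the same 26 bases, printed above for Igkv6-25. The 4 segments Igkv4-59, Igkv4-68, Igkv4-71 and Igkv4-72 end in the same 28 bases, TGCcagcagtggagtagtaacccaccca, and summed to 4.70% of the mean share.

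To ask whether single segments differed between temperatures, all genes that passed a filter on low counts were fitted with edgeR's quasi-likelihood test. The 101 Igkv segments that were tested comprised 96 V genes and 5 pseudogenes. The other 59 had no count above 19 in any library and included the V genes Igkv1-131, Igkv20-101-2, Igkv1-35 and Igkv8-26. No segment passed an adjusted p of 0.05, nor did any of the 16133 genes tested (0%), and the smallest adjusted p among Igkv was 0.689 (edgeR, Benjamini-Hochberg over all genes). At an unadjusted p under 0.05 there were 11 segments (10.9%), 5 lower and 6 higher at 4 °C, against 6.76% of all genes (4.17% lower and 2.58% higher). Groups did not overlap for 16 segments (15.8%), 7 lower and 9 higher, against 23.3% of all genes (11% lower and 12.2% higher). The log2 fold changes were below 0 for 52 segments and above 0 for 49, with a median of -0.029, against 49.3% of all genes below 0 and a median of 0.0064. DESeq2, the tool used in the study, called 3 of the 84 Igkv segments with an adjusted p, against 0.891% of 12460 genes. These were Igkv1-122, Igkv5-37 and Igkv11-125. An edgeR fit scaled to the summed Igkv counts of each tumour, added after the data were seen, called 1, Igkv5-37 (adjusted p = 0.0271), against 0.124% of all genes.

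**Figure D5:**
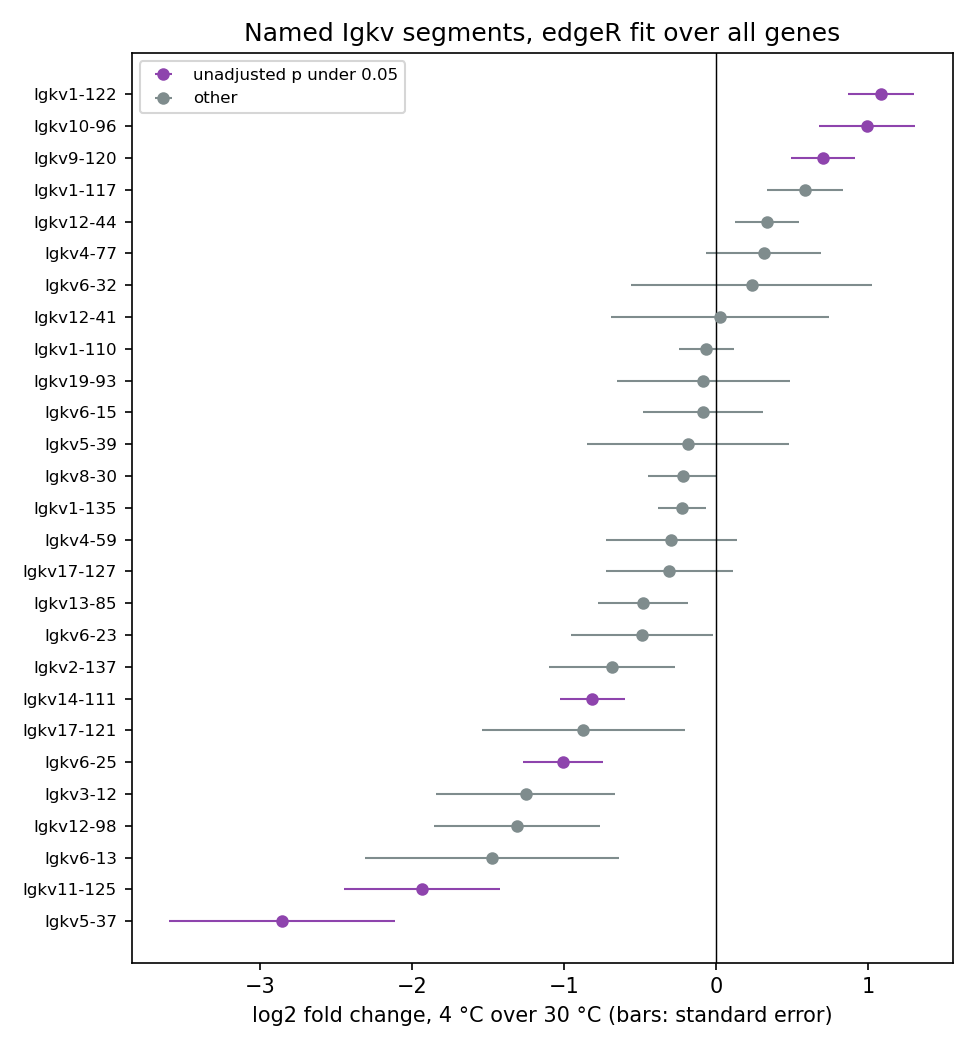
Log2 fold change of 4 °C over 30 °C (x axis) of the 27 named segments (y axis) from the edgeR fit over all genes, with bars of 1 standard error and colour for an unadjusted p under 0.05. Values run from -2.86 for Igkv5-37 to 1.08 for Igkv1-122, and no adjusted p passed 0.05.

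Igkv1-122, the segment with the smallest p, had TMM-scaled levels of 7.88, 8.95 and 9.87 CPM at 30 °C and of 20.7 and 17.1 CPM at 4 °C. The log2 fold change was 1.08 (SE 0.219, adjusted p = 0.689 in edgeR, unadjusted 0.00213), and the groups were well apart at a low level. Igkv5-37 was at 2.24, 9.36 and 3.32 CPM at 30 °C and at 0.746 and 0.599 CPM at 4 °C, from 42, 114 and 76 counts against 15 and 10. Its log2 fold change was -2.86 (SE 0.743, adjusted p = 0.689). Igkv11-125 was at 9.31, 19.5 and 7.07 CPM at 30 °C and at 3.68 and 2.52 CPM at 4 °C (log2 fold change -1.94, SE 0.513, adjusted p = 0.689). None of these 3 held more than 0.403% of Igkv counts in any tumour, and for Igkv5-37 and Igkv11-125 the 30 °C replicate 2 had the highest level.

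Among the abundant segments, Igkv14-111 was at 275, 223 and 191 CPM at 30 °C and at 141 and 120 CPM at 4 °C, a log2 fold change of -0.82 (SE 0.213, edgeR adjusted p = 0.689). Igkv6-25 was at 73.5, 85.7 and 125 CPM at 30 °C and at 47.2 and 47.3 CPM at 4 °C, a log2 fold change of -1.01 (SE 0.263, adjusted p = 0.689). Both were lower in each 4 °C tumour than in any at 30 °C. Igkv10-96 was at 204, 247 and 218 CPM at 30 °C and at 605 and 283 CPM at 4 °C, a log2 fold change of 0.99 (SE 0.317, adjusted p = 0.692 in edgeR, unadjusted 0.0189). The 4 °C tumours lay above the 30 °C tumours and differed from each other by more than the 30 °C tumours did. Without 4 °C replicate 1 the log2 fold change was 0.34. Igkv1-117 had a log2 fold change of 0.58 (SE 0.251, adjusted p = 0.743), and one 4 °C tumour (282 CPM) lay level with the highest at 30 °C (283 CPM). The other 5 segments under an unadjusted p of 0.05 were Igkv2-112 (log2 fold change 0.80), Igkv9-120 (0.70), Igkv4-91 (0.91), Igkv6-14 (1.14) and Igkv5-45 (-0.99).

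Igkv segments varied more between tumours of one temperature than genes of the same abundance did. The median biological coefficient of variation from the edgeR fit was 0.365 for Igkv and 0.280 for all genes, with 0.418 for Ighv and 0.283 for the 3 Iglv segments. The dispersion lay above the trend for 69 of 101 Igkv segments (68.3%), against 22.5% of all genes. The standard error of a log2 fold change had a median of 0.433 for Igkv and of 0.283 for all genes. The extreme fold changes came from single tumours. Igkv3-9 (-3.55, SE 1.76) rested on the 277 counts of 30 °C replicate 1, and Igkv14-130 (2.37, SE 1.23) on 953 counts in 4 °C replicate 1 against 23 to 149 in the other tumours.

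Genes that build and transcribe light chains were read beside the segments, and none passed the adjusted threshold in edgeR. Of 24 tested genes of light-chain transcription and rearrangement, 7 had a log2 fold change below 0 and 17 above, and 1, Rag1, had an unadjusted p under 0.05. That is 4.17% of the list under that p, against 6.76% of all genes, and 70.8% above 0, against 50.7% of all genes. Rag1, a subunit of the recombinase that cuts V and J segments, was at 1.66, 2.96 and 6.35 CPM at 30 °C and at 1.29 and 0.618 CPM at 4 °C. Igll1 is a part of the surrogate light chain, which B cell precursors carry before a light chain is joined. Its level was 0.972, 1.51 and 1.48 CPM at 30 °C and 0.322 and 0.247 CPM at 4 °C, from 4 to 30 counts. Rag1 and Igll1 were both lower in each 4 °C tumour. Of the other genes tested in the immature B cell list, Vpreb3 was the most abundant. Its level was 14.4, 8.59 and 23.0 CPM at 30 °C and 21.8 and 28.2 CPM at 4 °C (log2 fold change 0.64). Dntt and Vpreb1 had log2 fold changes of 0.26 and -1.02. The 7 genes of that list summed to 19.9, 15.5 and 35.4 CPM at 30 °C and to 25.7 and 32.5 CPM at 4 °C. These sums overlapped between temperatures, but Vpreb3 made up most of each, so they say little of the other genes. Of the 5 genes tested in that list, 2, Rag1 and Igll1, had an unadjusted edgeR p under 0.05 (40%, against 6.76% of all genes). Pou2af1, a coactivator at octamer sites of V promoters, was at 220, 166 and 439 CPM at 30 °C and at 406 and 316 CPM at 4 °C (log2 fold change 0.32, SE 0.307), and Irf4, which acts at the kappa enhancers, at 44.4, 47.1 and 94.6 CPM and at 107 and 63.3 CPM (log2 fold change 0.34, SE 0.344). Both overlapped between temperatures and were low in 30 °C replicates 1 and 2, like the B cell markers.

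The lists of B-lineage genes are small, and their counts are read against 6.76% of all genes at an unadjusted p under 0.05 and 50.7% with a log2 fold change above 0. All 10 B cell markers had a log2 fold change above 0, with a median of 0.69, and 2 of them, Cd79a and Cd79b, had an unadjusted p under 0.05. All 9 lambda genes tested were above 0 as well, with a median of 0.66, and Iglc1 and Iglc3 had an unadjusted p under 0.05. Of 8 heavy-chain constants, Ighm and Ighd, the classes of unswitched B cells, had log2 fold changes of 0.54 and 0.83 (unadjusted edgeR p of 0.0325 and 0.0111), and the 4 Ighg genes lay between -0.48 and -0.19. Of the 6 Igkj and Igkc entries, 4 were above 0 and none had an unadjusted p under 0.05. Of 9 plasma cell genes, 6 were above 0 and Mzb1 alone had an unadjusted p under 0.05 (0.0108). Igkv, with 52 segments below 0 and 49 above, had a median near that of all genes. The Tlx1 and Nkx2-5 markers of splenic mesenchyme, at 2.90 to 30.2 CPM, had log2 fold changes of 0.75 and 0.86 (unadjusted p of 0.00659 and 0.0161). All 12 acinar and all 6 carcinoma epithelium genes were below 0, with Krt8 at -0.0034. Of 7 erythroblast genes, 5 were above 0. None of the genes in the acinar, carcinoma epithelium and erythroblast lists had an unadjusted edgeR p under 0.05. The part of such tissue in the B-lineage values was not tested.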

How the data were processed

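RNA was sequenced from 5 tumours, 3 at 30 °C and 2 at 4 °C. The values are read counts that the authors summarised per gene with featureCounts (v2.0.0) on the Gencode vM19 annotation. The submitters' notes also list fastp, HISAT and RSEM and the build GRCm38, and how strand and multiply aligned reads were handled is not given in the sources used here. Unnamed entries (0.0101% to 0.0170% of counts) were left out. Coordinates and sequences were taken by gene name from GENCODE M21 on the same build, which held all 160 Igkv entries. RefSeq promoters and proteins of these segments were not used here.

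Members and lists were chosen with earlier results of these data known. All genes were fitted with edgeR 4.0.16 (R 4.3.3; TMM, filterByExpr, robust quasi-likelihood, Benjamini-Hochberg over 16133 genes), a procedure tested on simulated data first. DESeq2 1.42.0 was an alternative. Single values per tumour were compared by exact permutation (SciPy 1.17.1), with Benjamini-Hochberg adjustment over 7 tests. CPM of Igkc, of markers and of the other lists is relative to the library total unless called TMM-scaled, and CPM of segments is TMM-scaled. Segments were named if they were among the 10 largest mean shares, the 3 largest in a tumour, the 2 at 1% or more that stood out most from the median of the other tumours, the 5 smallest p, the leader of a family with 2% or more of the mean share, or the leading pseudogene, and names outside that rule were chosen after their values were seen. Alternatives covered scaling, filters, robust estimation, a replicate block, the acinar genes, indices, exon length and leaving out each tumour. Depth was 16191708 to 20320525 counts, and 3 counts correspond to 0.148 to 0.185 CPM.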

Additional observations from a re-analysis of the deposited data

How the results depend on the processing

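The count of Igkv segments past an adjusted p of 0.05 was 0 with edgeR, with RLE or upper-quartile scaling, with no filter or a stricter filter, without robust estimation, without the acinar genes and without each tumour in turn. It was 3 with DESeq2 (log2 fold changes of 1.07 for Igkv1-122, -2.89 for Igkv5-37 and -1.95 for Igkv11-125) and 1 with scaling to the summed Igkv counts, an alternative chosen after seeing the data. The cause was not tested. A fit with the replicate block, in which the same number pairs tumours across temperatures, called 0 Igkv segments and 44 of all genes tested. The labels do not say that a number marks a shared litter or day. The deviations from the group means over 14617 genes had a correlation of -0.246 for the tumours numbered 1 and of 0.28 for those numbered 2. With only 2 tumours at 4 °C their deviations are equal and opposite, so these correlations cannot show whether the numbers mark pairs. The numbers were not taken as pairs because the labels name none. The 30 °C tumour numbered 3 had no partner in the block fit. Under the replicate block the sign changed for Igkv5-39 (0.60) and Igkv12-41 (-0.19), and under scaling to the summed Igkv counts for Igkv1-110 (0.031).

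Some differences of 4 °C minus 30 °C changed sign between settings. For single values per tumour no exact permutation p could fall under 0.05, whatever the sign. With a tumour left out, these single values were not tested. The summed Igkv level differed by 0.067 on the log2 scale without TMM. The number of segments detected differed by 1.83 with any count and by 0.505 after thinning. The composition gave 0.0105 with the Morisita-Horn distance. Leaving out one tumour gave -0.32 to 0.19 for the summed level, -0.68 to 0.036 for Igkv per Igkc (log2), -2 to 0.5 for the number detected, -0.0105 to 0.0015 for evenness and -0.0155 to 0.0059 for composition. The kappa to lambda difference (log2) ranged from -0.86 to -0.19 and that of the 5 leading segments from 3.09 to 5.03 percentage points. Igkv10-96 ranged from 0.34 (without 4 °C replicate 1) to 1.42. For segments that changed sign the range of log2 fold changes was -0.44 to 0.33 (Igkv6-15), -1.36 to 0.034 (Igkv6-23), -0.91 to 0.42 (Igkv19-93), -0.13 to 0.060 (Igkv1-110), -1.20 to 0.051 (Igkv17-121), -1.03 to 1.04 (Igkv6-32), -0.79 to 0.69 (Igkv5-39), -0.37 to 1.01 (Igkv12-41), -1.05 to 0.18 (Igkv4-59) and -0.95 to 0.11 (Igkv17-127). Without a 4 °C tumour the remaining one was assumed to vary like those at 30 °C. The median over Igkv segments was -0.32 without 4 °C replicate 1 and 0.16 without 4 °C replicate 2. With 3 tumours against 2, a two-sided exact permutation test of a single value cannot go below p = 0.2. The one-sided exact permutation test of composition cannot go below p = 0.1.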
